A study of Mus musculus with 2 samples.

Results

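The sarcomere and contractile genes examined here were 38 mouse genes for the thick filament and titin (10 genes), the thin filament (14 genes), the Z-disc (8 genes), the intermediate filament, intercalated disc and costamere (4 genes) and the M-band (2 genes). They were grouped by the structural role of their proteins, and their peaks were found by gene symbol in a list of Isl1 binding sites from embryos. Of the 48295 peaks in the list, 51 were named for one of these genes, and they fell on 19 of the 38 genes. The list came from chromatin immunoprecipitation followed by sequencing (ChIP-Seq) of the cardiogenic mesoderm and heart region of C57BL/6 mouse embryos at E8.25 to E9, with material of 60 to 80 embryos in the pool. No mutant, treatment or second stage was part of the series, so the comparison was between these genes and the other genes of the same list. The matching input sample was not analysed here, and with 1 list there was no replicate against which a peak could be checked. Each entry gives a position, the name of the gene with the closest transcription start site (TSS) and the distance to that TSS, with neither a height nor a p-value, so the strength of a peak and the sequencing depth are unknown.

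The sarcomere is the contractile unit of striated muscle. Myosin thick filaments, held in register at the M-band, slide along actin thin filaments that are anchored in the Z-disc, titin spans from Z-disc to M-band, and the troponin complex with tropomyosin makes the sliding sensitive to calcium. Isl1 is a LIM-homeodomain transcription factor of second heart field progenitors, cells that join the heart tube and then differentiate into sarcomere-bearing cardiomyocytes.

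Within 10 kb of the TSS, 14 of the 51 peaks were found, and the sequence around 8 peaks close to a start or without a run is shown because 6 of the 8 windows hold the kind of stretch described next, and the others show what a peak without one looks like. Each window spans 200 bp around the midpoint of a peak on the strand of the gene, in mm9 coordinates (assembly NCBIM37). Capitals mark unbroken stretches of at least 25 purines (A and G) or pyrimidines (C and T), called runs below. In a pair of windows without such a run, one before Tcap and one in Pdlim5, capitals mark TAAT, the core of homeodomain recognition sites, or its reverse complement ATTA. The windows are in order of distance to the TSS.
Csrp3, 836 bp upstream, chr7:56104157-56104356, minus strand: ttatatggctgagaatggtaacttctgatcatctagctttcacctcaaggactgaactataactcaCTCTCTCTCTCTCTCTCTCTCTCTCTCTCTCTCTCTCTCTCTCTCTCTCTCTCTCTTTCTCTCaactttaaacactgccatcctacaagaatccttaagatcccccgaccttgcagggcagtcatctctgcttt
Tcap, 1269 bp upstream, chr11:98243756-98243955, plus strand: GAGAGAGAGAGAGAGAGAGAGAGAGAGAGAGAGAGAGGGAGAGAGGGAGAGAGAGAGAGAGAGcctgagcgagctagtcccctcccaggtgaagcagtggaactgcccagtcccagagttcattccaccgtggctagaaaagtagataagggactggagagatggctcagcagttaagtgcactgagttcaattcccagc
Myl2, 1351 bp upstream, chr5:122549538-122549737, plus strand: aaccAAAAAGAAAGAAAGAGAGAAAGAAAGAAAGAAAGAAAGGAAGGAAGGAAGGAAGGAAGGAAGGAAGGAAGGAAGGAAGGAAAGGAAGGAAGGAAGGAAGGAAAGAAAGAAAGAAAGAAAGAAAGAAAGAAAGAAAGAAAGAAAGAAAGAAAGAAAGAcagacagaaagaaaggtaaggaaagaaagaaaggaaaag
Xirp2, 1949 bp downstream, chr2:67285908-67286107, plus strand: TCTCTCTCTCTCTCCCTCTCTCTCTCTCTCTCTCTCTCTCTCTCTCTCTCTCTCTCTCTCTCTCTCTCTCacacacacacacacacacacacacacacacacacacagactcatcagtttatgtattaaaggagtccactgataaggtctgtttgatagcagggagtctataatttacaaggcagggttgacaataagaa
Tnni1, 1950 bp upstream, chr1:137693948-137694147, plus strand: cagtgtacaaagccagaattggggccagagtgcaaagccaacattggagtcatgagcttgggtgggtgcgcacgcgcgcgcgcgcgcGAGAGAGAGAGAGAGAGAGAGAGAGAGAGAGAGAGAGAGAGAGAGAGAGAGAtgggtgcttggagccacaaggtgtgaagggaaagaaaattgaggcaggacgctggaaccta
Tcap, 2409 bp upstream, chr11:98242616-98242815, plus strand: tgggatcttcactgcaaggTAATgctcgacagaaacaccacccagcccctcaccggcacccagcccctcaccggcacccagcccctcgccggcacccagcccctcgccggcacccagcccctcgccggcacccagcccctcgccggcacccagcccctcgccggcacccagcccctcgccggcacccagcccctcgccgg
Tpm4, 5597 bp downstream, chr8:74664688-74664887, plus strand: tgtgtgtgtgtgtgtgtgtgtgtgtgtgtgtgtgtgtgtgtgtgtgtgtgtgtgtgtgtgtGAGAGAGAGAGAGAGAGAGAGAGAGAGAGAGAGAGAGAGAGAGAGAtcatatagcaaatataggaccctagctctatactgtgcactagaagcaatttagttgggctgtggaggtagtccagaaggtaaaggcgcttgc
Pdlim5, 5754 bp downstream, chr3:142048960-142049159, minus strand: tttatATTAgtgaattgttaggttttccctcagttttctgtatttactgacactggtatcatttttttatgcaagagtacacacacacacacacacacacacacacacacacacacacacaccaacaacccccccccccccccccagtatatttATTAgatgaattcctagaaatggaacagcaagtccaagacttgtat
The Myl2 window held a purine run of 157 bp. Over all 14 peaks within 10 kb, the longest run in the window went from 6 to 200 bp, so the windows shown do not include the longest. Alternating dinucleotides made up most of the runs of Csrp3, Tnni1 and the nearer peak of Tcap, of 63, 52 and 63 bp. The farther Tcap window held no run over 6 bp and repeated a unit of 18 bp over 130 bp, with a GC content of 75.5%. Pdlim5 held a dinucleotide repeat of 44 bp that mixes purines and pyrimidines, beside 2 copies of TAAT.

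A peak was named for 19 of 38 genes, a share of 50.0% (95% Wilson interval 34.8 to 65.2%). Among all 20281 protein-coding genes placed on mm9, 10656 had one, which is 52.5%. Since a peak is named for the closest TSS, a gene with distant neighbours collects more peaks, and each gene was therefore given its territory, the stretch of genome closer to its coding TSSs than to those of any other coding gene. Coding genes spaced like the sarcomere genes, taken in 10 groups of equal size by territory, had a peak in 50.4% of cases, equal to 19.2 of 38 genes. A peak within 10 kb of the TSS was named for 12 of the 38 genes (31.6%, interval 19.1 to 47.5%), against 26% of all coding genes and 25.9% at similar spacing. Both backgrounds lay inside the interval of the sarcomere genes, so no difference in the share of genes with a peak was larger than the counting error. These intervals cover counting error only.

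**Figure D1:**
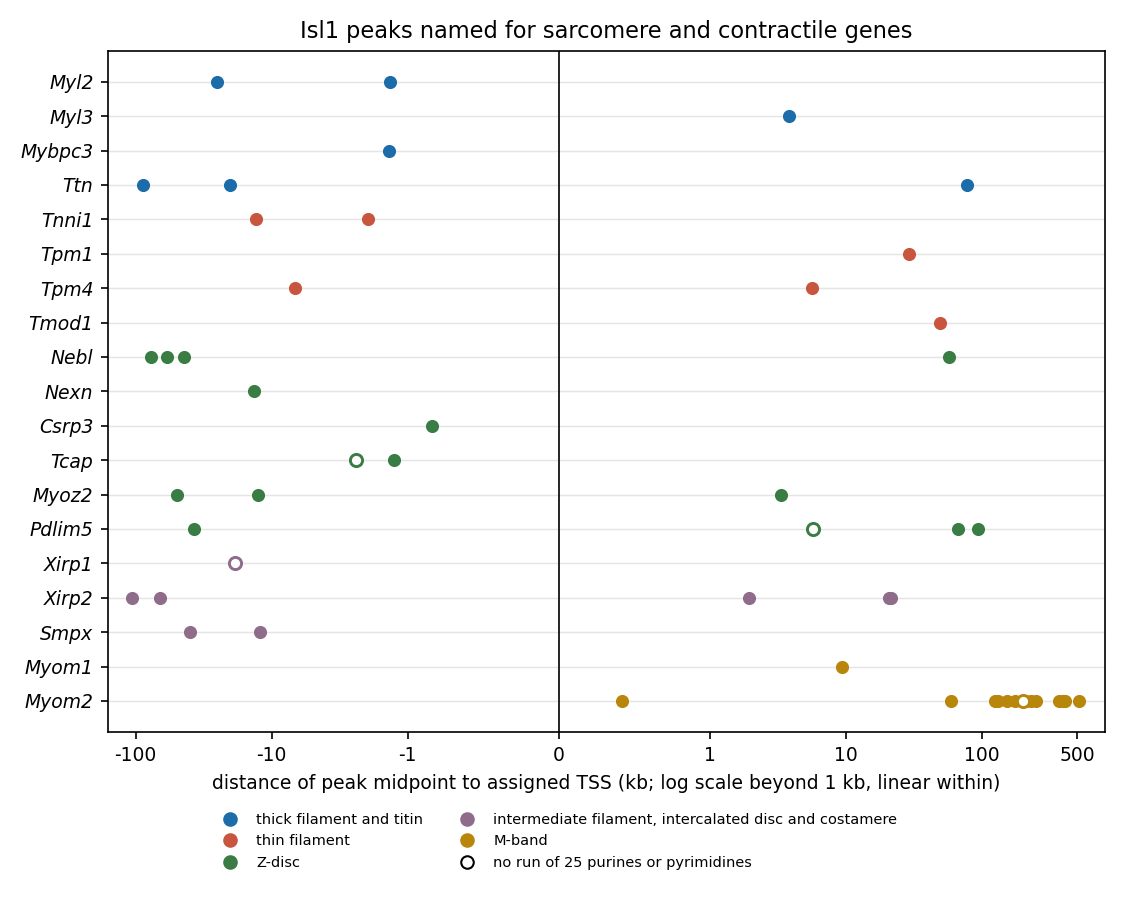
Distance of each of the 51 peaks to the TSS of the gene it was named for, in kb, with upstream peaks to the left; colors give the structural role and open circles the 4 peaks without a run. Peaks of Myl2, Mybpc3, Tnni1, Csrp3 and Tcap lay on the upstream side closest to the start, and the 14 peaks of Myom2 all lay downstream of its start.

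Among the thick filament genes and titin, 4 of 10 had a peak (40%, interval 16.8 to 68.7%, which holds the 52.5% of all coding genes), 7 peaks in all. Myl2, the regulatory light chain of ventricular myosin, had a peak 1.35 kb before its TSS and another 25.3 kb before it. Mybpc3, cardiac myosin-binding protein C, had 1 peak, at 1.38 kb upstream in intergenic sequence. In Myl3, the essential light chain of ventricular myosin, the single peak was in an intron 3.84 kb after the start. These 3 genes carried the named peaks nearest to a start in the thick filament. Ttn, which encodes titin, had 3 peaks, none within 10 kb. They lay 20.1 kb upstream, 77.2 kb downstream in an intron of Ttn, and 88.3 kb upstream in an intron of the neighboring gene Ccdc141. The intronic Ttn peak was 15.4 kb from a second coding start that GENCODE places inside the gene. No peak was named for the heavy chains Myh3, Myh6 and Myh7, for the atrial light chains Myl4 and Myl7, or for Myl9, a light chain of smooth muscle and non-muscle myosin.

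The thin filament had the lowest share, 4 of 14 genes or 28.6% (interval 11.7 to 54.6%), with 6 peaks. Tnni1, the slow skeletal troponin I that is also made in the embryonic heart, had peaks 1.95 and 13.1 kb upstream of the start used in the list, both in an intron of the longer Tnni1 gene model of GENCODE. Tpm4, a tropomyosin, had a peak 5.6 kb downstream in an intron and another 6.73 kb upstream. Both Tpm4 peaks lay within 10 kb, and the gene sits in a territory of only 27.1 kb, which leaves little room for farther ones. Tpm1, the main striated muscle tropomyosin, had 1 peak 29.2 kb downstream, past the end of the gene. Tmod1, which caps the pointed end of the thin filament, had 1 intronic peak at 49.1 kb. No peak bore the name of an actin gene (Actc1, Acta1 or Acta2), of the troponins Tnnt1, Tnnt2, Tnni3 and Tnnc1, of Tpm2 or Tpm3, or of Lmod2, which lengthens thin filaments. The interval of the thin filament genes held the 52.5% of all coding genes, and their median territory, 33.1 kb, was the smallest of the 5 roles.

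In the Z-disc, 6 of 8 genes had a peak (75%, interval 40.9 to 92.9%), 15 peaks in all. Csrp3, the muscle LIM protein, had 1 peak whose midpoint lay 0.836 kb upstream and whose near edge was 0.666 kb from the TSS. Tcap, telethonin, which joins a pair of titin molecules at the Z-disc, had peaks 1.27 and 2.41 kb upstream, with both midpoints between the end of the neighboring gene Stard3 and the Tcap start. With 14 kb, the territory of Tcap was the smallest of any of the 19 genes with a peak. Myoz2, a calsarcin that binds calcineurin, had an intronic peak 3.35 kb downstream, another 12.6 kb upstream, and one more 49.6 kb upstream in an intron of Synpo2. Pdlim5, a PDZ and LIM domain protein, had 4 peaks. Its closest was in an intron at 5.75 kb, 2 more lay in introns at 66.6 and 94 kb, and 1 lay 37 kb upstream. Nexn, nexilin, had a peak 13.5 kb upstream in an intron of Fam73a. Nebl, nebulette, had 4 peaks between 44.5 and 76.8 kb from its TSS, 3 of them upstream. Actn2, alpha-actinin and the main crosslinker of the Z-disc, and Ldb3 had none. The interval of the Z-disc genes also held 52.5%, so their higher share and the lower share of the thin filament were each within counting error of all coding genes, and the median territory in the Z-disc was 64.5 kb.

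Of the 4 genes for intermediate filament, intercalated disc and costamere, 3 had a peak (75%, interval 30.1 to 95.4%, which holds 52.5%), with 8 peaks and a median territory of 78.6 kb. Xirp2, an actin-binding Xin repeat protein of the intercalated disc, had 5. Its closest was intronic at 1.95 kb, 2 more intronic peaks stood side by side at 20.7 and 21.6 kb, and the upstream peaks lay at 66.1 and 106 kb. Xirp1, the other Xin repeat protein, had a single peak 18.7 kb upstream, and that peak held no run. Smpx, a small costamere protein, had peaks 12.2 and 40.2 kb upstream. Des, which encodes the intermediate filament protein desmin, had none.

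Both M-band genes had peaks (interval 34.2 to 100%, which holds the 52.5% of all coding genes). In the territory groups of Myom1 and Myom2, 67.3 and 93.5% of all coding genes had one. Myom1, myomesin 1, had 1 intronic peak 9.41 kb downstream, with the longest run of the set, 502 bp across the whole peak. Myom2, myomesin 2, had 14 peaks, 27.5% of the peaks of all 38 genes. Its first peak began 0.09 kb after the TSS and was centered at 0.415 kb, the closest of the 51. A second lay in an intron at 59.6 kb, and the other 12 lay past the end of the gene between 124 and 519 kb. Myom2 borders a gene-poor stretch, with a territory of 674 kb. Its 20.8 peaks per Mb of territory compared with a median of 12.8 and a 10th to 90th percentile range of 2.33 to 26.7 among the 2028 coding genes of the widest group. The density of Myom2 was therefore within the range of genes with such territories, as were those of Ttn with 9.21, Xirp2 with 7.19 and Nebl with 4.08 named peaks per Mb. Counted by the closest coding TSS, the densities were 25.2 for Myom2, 12.3 for Ttn, 18.7 for Xirp2 and 22.4 for Nebl, again within the range of the widest group (9.3 to 30.8, median 18.9). Nebl thus moved from the lower to the upper part of the range with the way of naming.

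Across the 51 peaks the median distance to the TSS was 40.2 kb, from 0.415 to 519 kb, against 58.9 kb for the 48244 peaks of other genes. The interval of the median of the 51 peaks, 18.7 to 66.1 kb, held 58.9 kb, so this difference was within the counting error. Without Myom2, 37 peaks remained at a median of 20.1 kb. Within 10 kb lay 14 of the 51 peaks (27.5%, interval 17.1 to 40.9%) and 15.9% of the other peaks, which is below the interval. Peaks of 1 gene share its surroundings and are not independent, so both intervals are too narrow. The difference within 10 kb did not appear in the share of genes with a peak within 10 kb. Of the 14 near peaks, 7 lay upstream and 7 downstream, and only the peaks of Myom2 and Csrp3 lay within 1 kb. No peak midpoint fell in an exon. An intron held 22 midpoints, 17 of them in the gene the peak was named for and 5 in another gene, and 29 were intergenic. Width was close to that of the list, with a median of 486 bp (297 to 891 bp) against 467 bp.

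**Figure D2:**
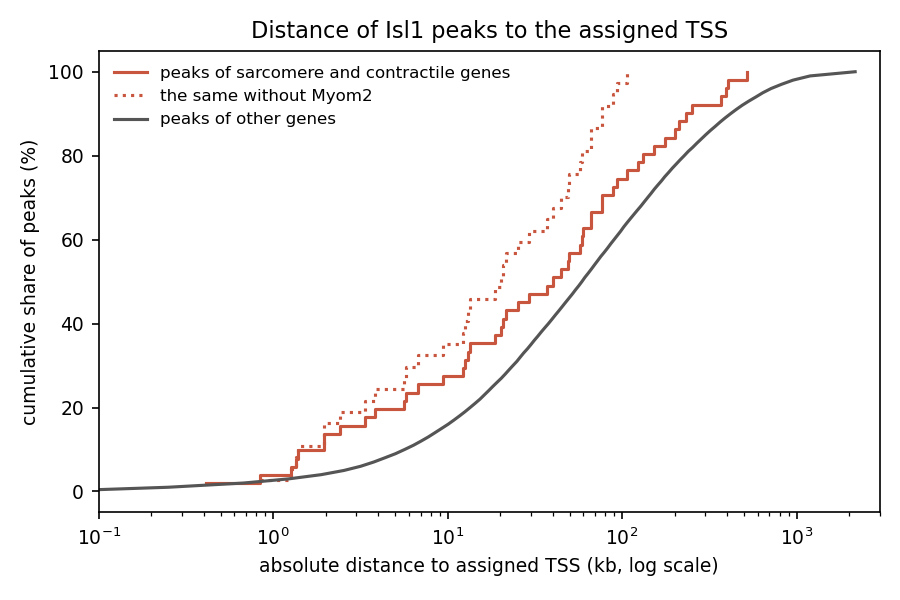
Cumulative share of peaks (%) by absolute distance to the named TSS (kb, log scale) for the 51 peaks of sarcomere and contractile genes, the 37 peaks left without Myom2, and the peaks of other genes. At 10 kb the curves stand at 27.5%, 35.1% and 15.9%.

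The 19 genes without a named peak were not all far from one. The nearest peak of any name lay at a median of 17 kb from their TSS, from 0.331 to 111 kb. For all coding genes that distance had a median of 19.5 kb, and for the 9625 without a named peak it was 38.4 kb. The 10th to 90th percentile range was 7.81 to 87 kb in the 19 genes and 11.2 to 100 kb in the 9625, so the spreads overlapped widely. Of the 19 genes, 4 held a peak inside the gene body, and the share among all coding genes without a named peak is not given here. Myh6 and Myh7, the alpha and beta cardiac myosin heavy chains, lie head to tail on chromosome 14 and share the peak at chr14:55596131-55596621. It was 10.6 kb upstream of Myh6, inside an intron of Myh7 17 kb after the Myh7 start, and the list named it for Mir208b, a microRNA hosted by Myh7, whose start was 1.76 kb away. Among coding genes the closest TSS was that of Myh6. Myl4 held a peak in an intron 0.331 kb after one of its coding starts in GENCODE, which the list named for the noncoding transcript Gm11665 at 13.6 kb. Actc1, cardiac alpha-actin, had peaks 8.02 and 23.7 kb upstream, both named for the noncoding transcript C130080G10Rik, and in each case Actc1 was the closest coding start. Myh3, the embryonic heavy chain, held an intronic peak at 14.5 kb named for Mir6923. At these 4 loci a sarcomere gene had the closest coding TSS, although the list gave the peak another name.

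**Figure D3:**
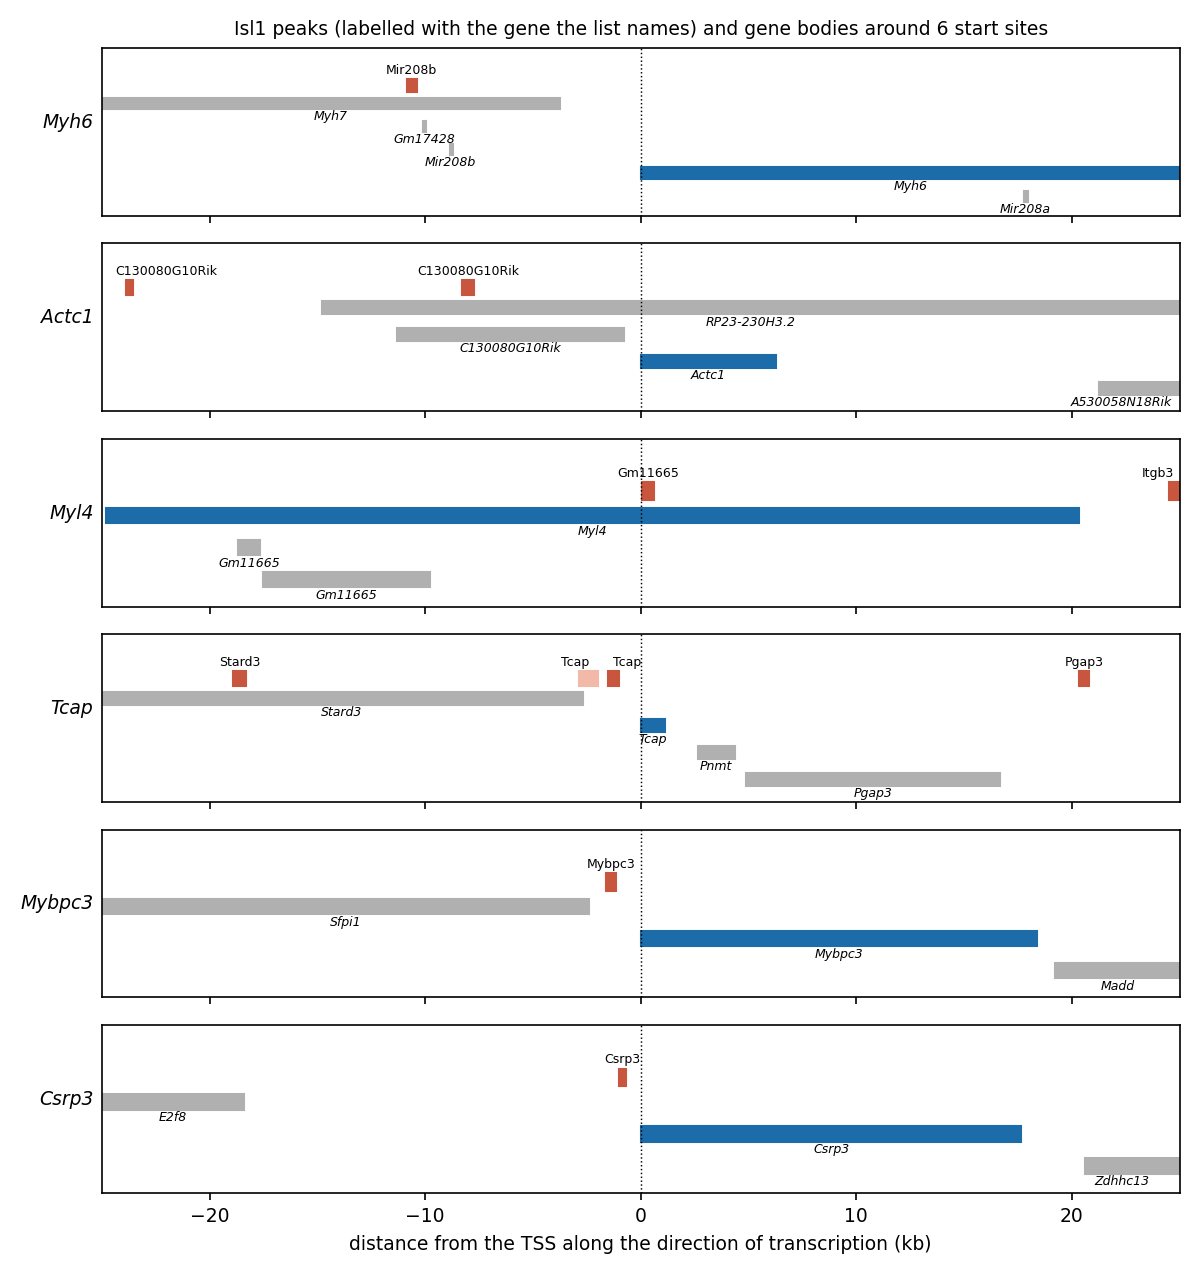
Peaks (red; pale without a run), each labelled with the gene named in the list, and gene bodies (blue for the gene of the panel, gray for others) around the TSS of 6 genes; the horizontal axis is the distance from the TSS in kb along the direction of transcription, and for Myl4 the TSS is an internal one. Genes that only touch the edge of a panel are left out. Around Myh6, Actc1 and Myl4 the peaks bear other names, whereas Tcap, Mybpc3 and Csrp3 each have a named peak within 1.5 kb upstream.

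For the other genes without a named peak, the nearest peak belonged to a neighbor. Tnnt1, slow troponin T, held an intronic peak at 7.01 kb that the list assigned to Ppp1r12c, and the same peak was the nearest to Tnni3, cardiac troponin I, 15.2 kb away. Tnnc1, cardiac troponin C, was 10.3 kb from a Sema3g peak, Tpm2 was 13.5 kb from a Car9 peak, and Tnnt2, cardiac troponin T, was 15.6 kb from a Lad1 peak. Beyond 40 kb were Myl9 (45.4 kb), Acta2 (49.2 kb), Lmod2 (50.3 kb) and Ldb3 (55.9 kb). The most remote were Myl7 (83.2 kb), Acta1 (85 kb), Tpm3 (85.8 kb), Actn2 (91.8 kb) and Des (111 kb). The 4 troponin genes without a named peak thus each had some peak within 15.6 kb, a distance below the median of 19.5 kb for all coding genes. The 3 actin genes ranged from 8.02 kb in Actc1 to 85 kb in Acta1.

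When each peak was given to the closest coding TSS in place of the name in the list, 22 of the 38 genes (57.9%) had a peak, and 53.6% of coding genes of similar spacing did. The number of peaks rose from 51 to 87. Of these, 49 already bore the name of the gene, 32 had been named for a noncoding transcript and 6 for another coding gene. Nebl went from 4 to 22 peaks, mainly through 9 peaks named for Mir6419 and 8 for 4930515L03Rik, and its nearest peak then stood 6.63 kb from a Nebl start. Xirp2 went from 5 to 13, Myom2 from 14 to 17 and Tpm1 from 1 to 3. Myh3, Myh6, Myl4 and Actc1 gained their peaks in this way, and Tmod1 lost its peak to Tstd2. Counting any peak over the gene body or in the 10 kb before it gave 20 of 38 genes (52.6%, interval 37.3 to 67.5%), with 39.9% at similar spacing, a value inside that interval.

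Genes with a peak tended to stand farther from their neighbors than genes without. The territory had a median of 64.9 kb (14 to 981 kb) in the 19 genes with a peak and 29.2 kb (5.52 to 81.2 kb) in the 19 without. In the 4 narrowest groups, Tcap, Myl3 and Tpm4 were the 3 genes with a peak among 13, and the share of all coding genes rose there from 10.5 to 38.2%. In groups 5 and 6, 7 of 14 genes had a peak, between shares of 46.7 and 55.3%. In the 4 widest groups 9 of 11 had one, where the share rose from 67.3 to 93.5%. The exceptions in the wide groups were Actc1 with 81.2 kb and Actn2 with 68.7 kb. Per Mb of territory the 38 genes held 11.6 named peaks, 9.96 without Myom2, against 14.2 for coding genes as a whole. The direction turned when each peak counted for the closest coding TSS, with 19.8 peaks per Mb for the 38 genes, 18.8 without Myom2, and 18.2 for all coding genes.

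**Figure D4:**
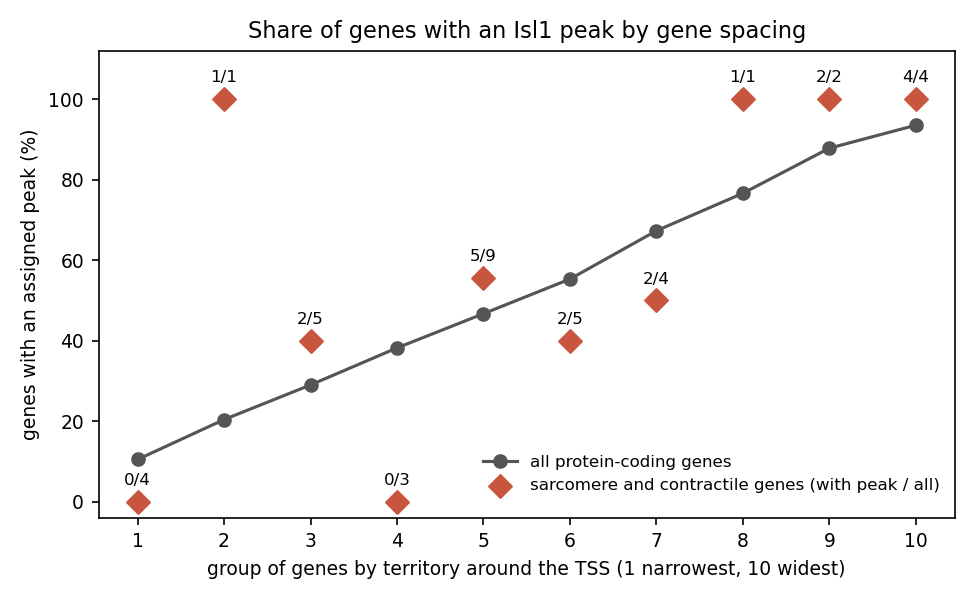
Share of genes with a peak (%) in 10 groups of protein-coding genes ordered by territory, from the narrowest to the widest; the gray line is all coding genes and the red diamonds are the sarcomere and contractile genes, with the number with a peak over the number in the group. The gray line climbs from 10.5 to 93.5%, and the diamonds scatter around it with 1 to 9 genes each.

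Such a run lay within 100 bp of the midpoint in 47 of the 51 peaks (92.2%, interval 81.5 to 96.9%) and in 94.1% of the other peaks. Windows of the same size 1 kb to either side of the peaks held one in 5.88% of cases for the sarcomere genes and in 3.94% for other genes. The share of the other peaks lay inside the interval of the sarcomere peaks, and the share of the flanks lay far below it. On the strand of the gene, 22 of the 47 runs were purines and 25 pyrimidines. A tandem repeat, a unit of up to 20 bp repeated without mismatch over at least 40 bp, was found in 44 of 51 peaks (86.3%) and in 85.2% of the other peaks. Of the windows 1 kb away, 6.86% held one for the sarcomere genes and 2.95% for other genes. The repeated unit was 2 bp long in 19 of the 44, 4 bp in 8 and 3 bp in 6. Reads of the input over these repeats were not analysed here.

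The 4 peaks without a run belonged to Tcap (2.41 kb upstream), Pdlim5 (5.75 kb), Xirp1 (18.7 kb upstream) and Myom2 (202 kb downstream). Their longest stretches of purines or pyrimidines within the window were 6, 17, 14 and 14 bp. Repeats were present in these windows too, of 130 bp in Tcap, 44 bp in Pdlim5, 39 bp in Xirp1 and 29 bp in Myom2, the latter pair under the 40 bp minimum. TAAT stood in the windows of Tcap, Pdlim5 and Xirp1, and in 37.3% of the peaks of other genes that had no run. With 4 peaks no difference from that share can be read.

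Short motifs of heart transcription factors were sought in the 200-bp windows on both strands. TAAT occurred in 20 of 51 peaks (39.2%, interval 27 to 52.9%) and in 35.3% of the other peaks. CTAATG and CTAATTG, longer homeodomain sites of which TAAT is a part, occurred in 1 peak of Nebl and in none, against 2.66 and 0.603% of the other peaks. The site AGATAA, bound by Gata factors, was in the windows of Myl3 and the nearer Tcap peak (3.92%, against 5.28%). The Mef2 core, CTA and TAG set 4 bases apart, which can overlap TAAT, was in 1 Nebl peak (1.96%, against 1.4%). The CArG box of Srf, a known regulator of actin and other contractile genes, was in no window, with 0.4% among other peaks. The E-box CAGCTG was in 1 Myom2 peak (1.96%, against 2.41%) and CATCTG in none (against 4.99%). A count of 0 of 51 allows a share of up to 5.88% when 3 counts are taken as the limit and of up to 7% by the Wilson interval, and for every motif searched the interval over the 51 peaks held the share of the other peaks. A match is a description of letters and shows no binding of the factor.

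Long runs, of at least 50 bp, were counted across the genome to see how many such sequences each gene had at hand. The territories of the 38 genes held 274, of which 98 lay under a peak (35.8%, interval 30.3 to 41.6%), against 30.4% of the 176892 in all territories, a value just inside the interval. Nebl, Myom2 and Xirp2 held 27, 21 and 15 of the 98. Runs of 1 gene or under 1 peak are not independent, so this interval is too narrow. Genes with a named peak had a median of 5 long runs (2 to 64), and genes without one had a median of 1 (0 to 7). All 6 genes with no long run, Myl7, Acta2, Tnnt1, Tnni3, Tpm2 and Des, were without a named peak, and 5.3% of all coding genes with none had one. With 1 or 2 long runs, 4 of 12 genes had a peak, next to 32% of all coding genes. With 3 to 5 there were 7 of 11, next to 59.3%, and with 6 or more there were 8 of 9, next to 87.3%. Myh6 was the exception among the latter, with 7 long runs, 2 of them under a peak that bears another name. Territory and the number of long runs rise together, and their separate parts in the presence of a peak were not tested. The counts also include the runs under the peaks themselves. A run of at least 40 bp lay in the windows of 92.2% of the peaks of the 38 genes and 91.2% of the other peaks. A peak thus usually brings a run of its own into the count. The rise across these classes is therefore partly built in and is no separate evidence of a link between runs and peaks.

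**Figure D5:**
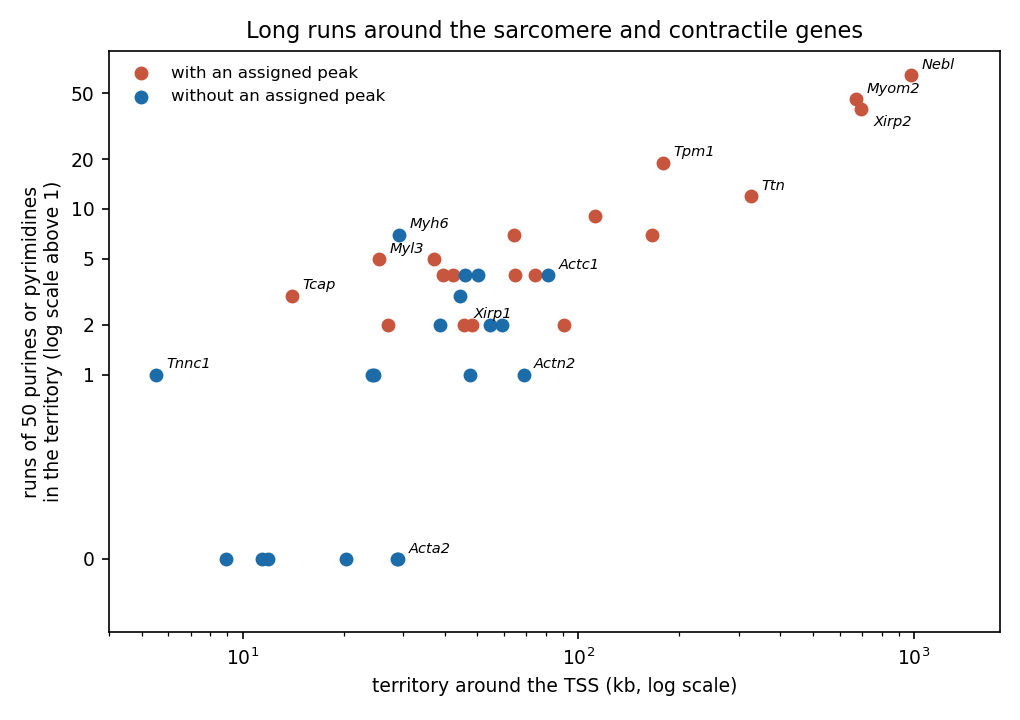
Number of runs of at least 50 purines or pyrimidines in the territory of each of the 38 genes (vertical axis, log scale above 1) against the size of the territory (kb, log scale), in red with and in blue without a named peak. No gene without such a run has a named peak, and Nebl, Myom2 and Xirp2 stand at the upper right with 64, 46 and 40 runs. The numbers include runs under the peaks themselves.

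A further 60 genes beyond the 38, most of them of the sarcomere and its assembly, gave a like picture. The list also took in genes outside the sarcomere, among them Murc and Casq2, which each had a peak. A peak was named for 34 of the 60 (56.7%, interval 44.1 to 68.4%), next to 51% of coding genes of similar spacing, and 79 peaks were named in all. Sorbs2, a Z-disc adaptor, had 10 peaks, and Palld, palladin, had 8, with territories of 371 and 376 kb. Genes of the widest group had a median of 7 peaks and a 90th percentile of 19. Among close relatives of the 38 genes, the skeletal heavy chains Myh1, Myh2, Myh4 and Myh8 had 1, 1, 1 and 2 peaks. Their territories were 43.1, 61, 30.1 and 40.7 kb, in groups where 38.2 to 55.3% of all coding genes had a peak. The heavy chains Myh7b and Myh11 had 0 and 2. The skeletal troponins Tnnt3, Tnni2 and Tnnc2, with territories of 31.8, 12 and 7.96 kb, had 0, in groups with shares of 10.5 to 38.2%.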

How the data were processed

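One Isl1 ChIP-Seq peak list of C57BL/6 embryos at E8.25 to E9 was used. The stage is that of the sample title, and another label of the series names a single stage within that range. According to the labels and the methods of the study, tissue was crosslinked with 1% formaldehyde for 15 min, sheared to 200 to 500 bp and precipitated with 2 to 5 µg of anti-Isl1 antibody. The authors aligned reads to mm9 (Bowtie2), cleared duplicates (Picard 1.136), used MACS14 for peak calling, discarded regions of the ENCODE blacklist and annotated the closest TSS. The Bowtie2 version was not given in the sources used here. The methods mention intersection of replicates with Bedtools, but not whether the embryo list is the outcome of it. The deposited values are peak positions, signed distances to the TSS in bp and gene names. Read counts per peak were not analysed here, and the input was not used.

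One repeated header line was dropped, which left 48295 peaks. Widths count both end positions. Peaks were linked to RefSeq genes by accession, or else by symbol or synonym, and 99.9% of peaks found a RefSeq gene. The 20281 protein-coding genes of GENCODE on NCBIM37 were linked to RefSeq genes by Ensembl identifier, or else by symbol or synonym. The file's distance equalled the peak midpoint minus a GENCODE coding TSS exactly for 32.8% of peaks, and within 35 bp for 86.3% of the peaks of the 38 genes. Shares carry 95% Wilson intervals. No p-value was computed, since there was 1 list without replicates. Peaks, genes and sequence windows were handled in Python 3.11.15 with pandas 2.3.3 and pysam 0.24.0, and the steps were tested on simulated data. Every gene was accounted for, with its named peaks or, failing these, the nearest peak of any name. Sequences are shown for peaks within 10 kb or without a run, up to 13, closest first, and 5 of these, some with longer runs than those shown, are not reported here. Alternatives were wider peaks, peaks without a run, distance limits, the closest coding TSS, gene bodies and other spacing groups. Omission of Myom2 and densities by the closest coding TSS were chosen after seeing the data. The genes, lists and motifs were chosen with earlier results of these data known.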

Additional observations from a re-analysis of the deposited data

How the results depend on the processing

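Of 31 values recomputed under another choice, 14 stayed within the counting error, or within 1.5 times for a number or density of peaks, and 17 moved. The share of genes with a peak, 50.0%, fell to 10.5% when only peaks without a run were kept, to 31.6% within 10 kb and to 28.9% when at least 2 peaks were required. The share at similar spacing moved with it, to 8.97%, 25.9% and 27.2%. With peaks wider than the median, the share at similar spacing was 35.6%, and that of the 38 genes was 42.1% (interval 27.9 to 57.8%). By the closest coding TSS the shares were 53.6 and 57.9%, and with peaks over the gene body or the 10 kb before they were 39.9 and 52.6%. The share at similar spacing was 51.7% with 5 groups by territory and 53.6% with 10 groups by gene length. The 51 peaks became 29 when only wider peaks were kept, 4 without a run, 87 by the closest coding TSS and 14 within 10 kb. The density of 11.6 named peaks per Mb became 19.8 by the closest coding TSS. The median distance of 40.2 kb fell to 12.2 kb in the peaks without a run, and stood at 20.1 kb without Myom2, an omission chosen after seeing the data. The share of peaks with a run stayed between 86.2% and 92.2%. No paired analysis was possible because the list is a single sample. One list, no replicate and no peak heights limit every value, and 38 genes leave a share known only to within about the width of its interval.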
